A study of Homo sapiens with 54 samples.

Results

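The ERBB receptors, the ligands of the EGF type that bind them and the ERBB inhibitor ERRFI1 were followed in WM266-4 melanoma cells in which the RAF-MEK-ERK pathway was inhibited or ERK was knocked down. The set was chosen by name as EGFR, ERBB2, ERBB3, ERBB4, NRG1, TGFA, HBEGF, AREG, EREG and ERRFI1. Of these 10 genes, 9 carry a value among the 17875 genes measured by 1 probe set each, and AREG is not analysed here. WM266-4 is an established human melanoma line that carries BRAF V600D, an activating change in the RAF kinase upstream of MEK and ERK. Total RNA was hybridised to 54 Affymetrix expression arrays in 18 groups of 3, lettered a, b and c.

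In 8 groups the cells received an inhibitor. LGX818, a RAF inhibitor, was given at 0.05 uM, trametinib and MEK162, both inhibitors of MEK1 and MEK2, at 0.003 uM and 0.3 uM, and an inhibitor of ERK1 and ERK2 that the labels do not name at 0.2 uM. Each was given for 24 h or 3 h, and DMSO cells of both times were the controls. In the other arm, cells carrying an inducible shRNA labelled shERK2, shERK1 or NT (non-targeting) were kept in doxycycline at 100 ng/ml for 7 or 3 days, so the NT control carried both an shRNA and doxycycline. Parental cells of the same days form the last 2 groups. Their labels disagree on doxycycline, which the treatment field names while the description calls the cells untreated. The growth protocol writes WM266-6 for the shRNA lines, the sample titles write WM2664, and the other labels WM266-4. Whether the lines were clones or pools is not stated. MEK162 arrays b and c of 3 h and 24 h are titled MER162 and were placed by their descriptions, which name MEK162. The protocols give triplicates without saying whether these were separate cultures, so every p value measures the spread between these arrays, which may be technical.

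ERBB receptors are tyrosine kinases that signal as pairs. EGFR is bound by TGFA, HBEGF, EREG and AREG, ERBB3 and ERBB4 are bound by neuregulins such as NRG1, HBEGF and EREG also bind ERBB4, and ERBB2 has no known ligand and serves as the partner of the others. ERBB3 has a weak kinase and recruits phosphatidylinositol 3-kinase when paired, and in melanoma the ERBB2-ERBB3 pair is known as a route to AKT signalling under RAF or MEK inhibition. ERRFI1 encodes MIG6, a cytoplasmic protein that binds the kinase domain of EGFR and ERBB2 and blocks it, and its transcription is known to follow ERK signalling, which makes it a feedback inhibitor.

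The sequences upstream of 4 of the genes that changed in most comparisons are printed because TGFA and ERRFI1 moved one way in every inhibitor group and ERBB2 the other way at 24 h, as described below. Each is the 250 bases before the annotated start, read 5′ to 3′ on the gene's own strand from RefSeq (GRCh38.p14). The windows are chr2:70553827-70554076 on the minus strand for TGFA, chr1:8026310-8026559 on the minus strand for ERRFI1, chr5:140346604-140346853 on the minus strand for HBEGF and chr17:39687844-39688093 on the plus strand for ERBB2. Capitals mark matches, on either strand, to the letters of 5 motifs that were searched, AP-1 (TGANTCA), EGR (GTGGGCG), ETS (CGGAAG), forkhead (TGTTTAC) and E-box (CACGTG).
TGFA: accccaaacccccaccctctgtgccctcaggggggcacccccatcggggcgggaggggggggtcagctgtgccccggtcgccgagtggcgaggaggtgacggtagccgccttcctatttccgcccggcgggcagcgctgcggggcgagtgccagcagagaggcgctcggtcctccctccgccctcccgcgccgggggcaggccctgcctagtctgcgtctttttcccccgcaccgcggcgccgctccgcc
ERRFI1: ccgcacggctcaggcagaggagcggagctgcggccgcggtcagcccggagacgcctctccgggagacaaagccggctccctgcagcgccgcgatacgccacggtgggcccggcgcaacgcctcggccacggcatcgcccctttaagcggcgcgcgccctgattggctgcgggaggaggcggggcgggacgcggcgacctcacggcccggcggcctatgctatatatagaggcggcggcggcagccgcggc
HBEGF: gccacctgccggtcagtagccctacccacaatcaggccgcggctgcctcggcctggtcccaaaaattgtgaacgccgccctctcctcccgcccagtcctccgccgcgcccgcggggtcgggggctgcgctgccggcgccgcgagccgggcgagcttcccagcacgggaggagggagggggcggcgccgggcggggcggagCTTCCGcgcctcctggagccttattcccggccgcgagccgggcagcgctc
ERBB2: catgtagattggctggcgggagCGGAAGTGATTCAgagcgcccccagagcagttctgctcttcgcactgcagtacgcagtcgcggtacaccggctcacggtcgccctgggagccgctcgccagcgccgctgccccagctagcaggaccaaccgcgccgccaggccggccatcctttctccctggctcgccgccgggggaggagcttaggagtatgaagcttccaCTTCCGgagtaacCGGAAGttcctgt
The TGFA and ERRFI1 windows held 0 matches, the HBEGF window held 1 ETS match, and the ERBB2 window held 3 ETS matches and 1 AP-1 match, of which the first ETS match (bases 23 to 28) adjoins the AP-1 match (bases 29 to 35). Among 35116 windows of this length upstream of RefSeq starts, 6.57% held an AP-1 match, 8.53% an EGR match, 16.5% an ETS match, 2.98% a forkhead match and 6.34% an E-box match. The windows of EREG and ERBB4 and 1 of 2 EGFR windows held 0 matches, and the other EGFR window, 90822 bases downstream of the first start, held 2 AP-1 matches. A match is a match of letters only, and its absence says only that these letters are not in this window.

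All levels are the authors' log2 RMA values, 1 unit of which is a factor of 2, and have no detection call. Genes were tested with limma where the mean of at least 1 group of an arm exceeded 7.86, the median of all values, which was met by 9703 genes among inhibitor arrays and by 9779 among shRNA arrays. A gene is called at an adjusted p under 0.05, and errors of differences are moderated SE. Melanocyte genes, read as a check of the line, were high: 7 of 7 measured markers exceeded 7.86 on every array, with medians from 12.04 (TYRP1) to 13.72 (S100B). Of the fibroblast markers 1 of 6 did so (COL1A2), and 0 of 4 leukocyte, 0 of 4 epithelial and 0 of 4 endothelial markers. The endothelial marker KDR did not exceed 7.86 on every array but had a median of 8.15 (5.97 to 8.84). Arrays of a group correlated at 0.991 to 0.998. The 3′ minus 5′ signal of GAPDH, which rises with RNA degradation, lay between 0.14 and 1.53 and was highest on shERK2 day 7 array a.

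Across all 54 arrays the family fell into genes at high level and genes near the lowest values of the table, which start at 2.51. ERBB3 was the highest receptor on its probe set scale, at 11.21 to 12.09, ERBB2 lay at 8.67 to 9.89, HBEGF at 8.16 to 9.53, TGFA at 6.48 to 9.65 and ERRFI1 at 9.82 to 11.94. These 5 passed the level filter in both arms. EGFR lay at 3.69 to 3.97, NRG1 at 4.20 to 4.55, EREG at 2.68 to 3.42 and ERBB4 at 3.79 to 5.23, so 4 of the 9 members, among them the receptor for TGFA and the ligand for ERBB3, were below the filter on every array. Levels of different probe sets carry different probe affinities, so their order between genes is only a rough one. In bulk RNA, fewer cells with a transcript and less of it per cell cannot be told apart.

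At 3 h, the ligands TGFA and HBEGF and the inhibitor ERRFI1 were lower with each of the 4 inhibitors, and ERBB3 was slightly higher. TGFA, a ligand of EGFR, stood at 8.0, 8.06 and 8.05 with LGX818, 8.38, 8.28 and 8.12 with trametinib, 8.29, 8.07 and 7.88 with MEK162 and 8.33, 8.37 and 8.17 with the ERK inhibitor, against 9.28, 9.25 and 9.13 with DMSO. All 12 inhibitor arrays lay below all 3 DMSO arrays. The log2 differences were -1.18, -0.96, -1.14 and -0.93 (SE 0.10), or 2.27, 1.94, 2.2 and 1.9-fold lower (limma adjusted p = 1.05e-09, 8.01e-08, 2.47e-09 and 1.5e-07). All 4 are differences from the same DMSO arrays, and the doses differed, so these values stand side by side without a comparison among inhibitors.

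ERRFI1, the feedback inhibitor, also fell in the same 3 h. Its arrays read 10.35, 10.58 and 10.45 with LGX818, 10.76, 10.61 and 10.59 with trametinib, 10.56, 10.79 and 10.44 with MEK162 and 10.87, 10.96 and 10.85 with the ERK inhibitor, against 11.88, 11.94 and 11.85 with DMSO. No inhibitor array overlapped DMSO, and the ERK inhibitor arrays lay nearest to it. The differences were -1.43, -1.24, -1.30 and -1.0 (SE 0.076; 2.7, 2.35, 2.46 and 1.99-fold lower; adjusted p = 7.72e-14, 2.68e-12, 6.52e-13 and 2.28e-10). Of the 9703 tested genes, 0.319%, 0.371%, 0.319% and 0.433% fell further than ERRFI1.

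HBEGF, a heparin-binding ligand of EGFR and ERBB4, fell by less. It read 8.27, 8.75 and 8.62 with LGX818, 8.58, 8.43 and 8.68 with trametinib, 8.61, 8.71 and 8.77 with MEK162 and 8.60, 8.61 and 8.90 with the ERK inhibitor, against 9.01, 9.0 and 9.24 with DMSO. The groups did not overlap, and ERK inhibitor array c came closest to DMSO. The differences were -0.54, -0.52, -0.39 and -0.38 (SE 0.12; adjusted p = 0.00238, 0.00364, 0.0308 and 0.04). The calls with MEK162 and the ERK inhibitor were lost when single arrays were left out, with values of -0.31 (adjusted p = 0.127) and -0.30 (0.132) without DMSO array c.

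Of the receptors, ERBB3 rose by 0.23, 0.25, 0.19 and 0.17 (SE 0.051; adjusted p = 0.00214, 0.00105, 0.0124 and 0.0363), an increase of at most 1.19-fold. Its arrays lay at 11.53, 11.46 and 11.48 with LGX818, 11.54, 11.50 and 11.49 with trametinib, 11.51, 11.49 and 11.35 with MEK162 and 11.45, 11.39 and 11.44 with the ERK inhibitor, against 11.21, 11.34 and 11.23 with DMSO, without overlap. In the same order of inhibitors, 8.09%, 6.28%, 13.7% and 19.5% of the tested genes rose further than ERBB3. ERBB2 differed by 0.23, 0.30, 0.30 and 0.23 (SE 0.094) and was called with trametinib and MEK162 (adjusted p = 0.0357 and 0.0326) but not with LGX818 and the ERK inhibitor (0.132 and 0.128). Its trametinib arrays (9.21, 9.09 and 9.45) overlapped the DMSO arrays (8.91, 8.83 and 9.10), and both ERBB2 calls were lost without DMSO array b, at 0.24 each (adjusted p = 0.175 and 0.181). The ERBB3 call with MEK162 was lost with array medians subtracted (0.16, adjusted p = 0.0784), with only its arrays and DMSO fitted (adjusted p = 0.0738) and without DMSO array a, MEK162 array a or MEK162 array b (0.16 to 0.17, adjusted p = 0.0663 to 0.0811). ERBB3 with the ERK inhibitor was 0.11 (adjusted p = 0.249) with medians subtracted. It was 0.16 and not called (adjusted p = 0.11) without ERK inhibitor array c, the array with the second highest GAPDH 3′ minus 5′ signal of the series (0.71), whose part in the result was not tested. The same call was also lost without ERK inhibitor array a, DMSO array a or DMSO array c (adjusted p = 0.0832, 0.17 and 0.0901). With only its arrays and DMSO fitted the adjusted p was 0.24. In all, 4, 5, 5 and 4 of the 5 tested members were called with LGX818, trametinib, MEK162 and the ERK inhibitor, where 11.7%, 11.3%, 13.2% and 10.4% of all tested genes were.

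**Figure D1:**
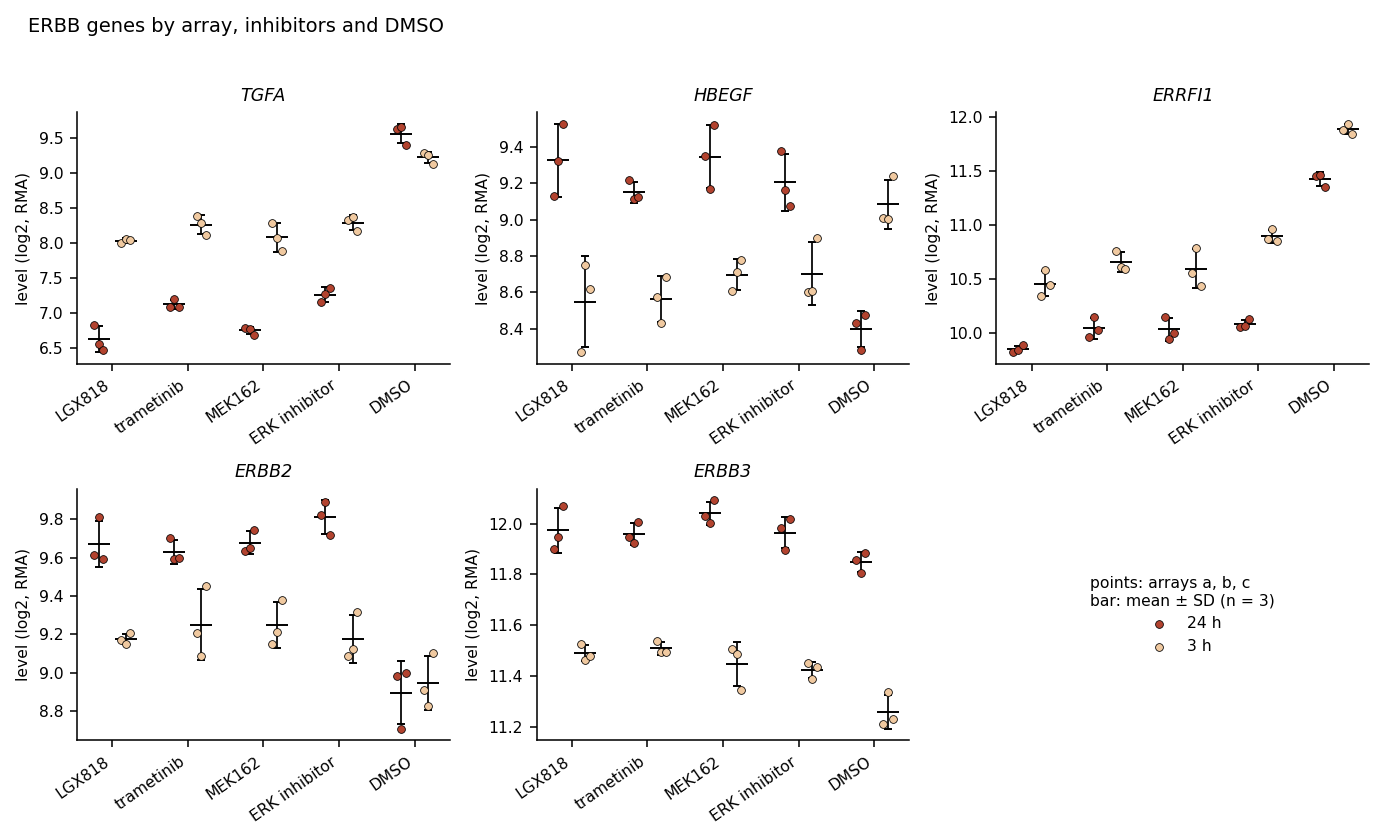
Level (log2, RMA) of 5 ERBB genes on each array under 4 inhibitors and DMSO, with 24 h in dark red and 3 h in light orange; horizontal bars are means with SD of 3 arrays. TGFA and ERRFI1 lie below DMSO at both times in every inhibitor group, while HBEGF lies below DMSO at 3 h and above it at 24 h.

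At 24 h, TGFA had fallen much further, ERRFI1 stayed low, and HBEGF and ERBB2 stood above DMSO. TGFA arrays read 6.84, 6.57 and 6.48 with LGX818, 7.09, 7.20 and 7.10 with trametinib, 6.79, 6.78 and 6.70 with MEK162 and 7.16, 7.27 and 7.37 with the ERK inhibitor, against 9.61, 9.65 and 9.40 with DMSO. The differences were -2.93, -2.43, -2.80 and -2.29 (SE 0.10), which is 7.6, 5.38, 6.96 and 4.9-fold lower (adjusted p = 2.03e-19, 2.08e-17, 5.87e-19 and 7.16e-17). All 12 inhibitor arrays were then below 7.86, where a low value can be background, and the fold may be an underestimate. In the same comparisons 1.69%, 1.71%, 1.84% and 1.96% of all tested genes changed by more than TGFA in either direction.

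ERRFI1 read 9.82, 9.84 and 9.89 with LGX818, 9.96, 10.15 and 10.02 with trametinib, 10.15, 9.95 and 10 with MEK162 and 10.05, 10.07 and 10.12 with the ERK inhibitor, against 11.46, 11.47 and 11.35 with DMSO. The highest inhibitor array was more than 1 log2 unit below the lowest DMSO array. The differences were -1.58, -1.38, -1.39 and -1.34 (SE 0.076; 2.98, 2.61, 2.63 and 2.54-fold lower; adjusted p = 3.39e-16, 7.91e-15, 5.42e-15 and 1.51e-14). At this time 4.37%, 4.4%, 5.03% and 4.24% of the tested genes fell further than ERRFI1, a larger share than at 3 h. Against the 3 h effect, ERRFI1 differed by -0.14, -0.15, -0.097 and -0.35 (SE 0.11), and only the ERK inhibitor value was called (adjusted p = 0.00876, with 0.28, 0.265 and 0.472 for the others in the order above).

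HBEGF had the opposite sign to its 3 h difference. It read 9.13, 9.32 and 9.53 with LGX818, 9.22, 9.11 and 9.12 with trametinib, 9.35, 9.17 and 9.52 with MEK162 and 9.38, 9.16 and 9.07 with the ERK inhibitor, against 8.43, 8.28 and 8.48 with DMSO. All 12 inhibitor arrays lay above all DMSO arrays of that time. The differences were 0.93, 0.75, 0.95 and 0.81 (SE 0.12; 1.9, 1.69, 1.93 and 1.75-fold higher; adjusted p = 1.36e-07, 4.45e-06, 9.88e-08 and 1.53e-06). The DMSO cells themselves had less HBEGF at 24 h than at 3 h (8.40 ± 0.10 against 9.08 ± 0.14, SD, n = 3 each; difference -0.69, adjusted p = 8.03e-05). Inhibitor means at 24 h, from 9.15 to 9.35, thus stood closer to the DMSO mean at 3 h than to that at 24 h, a comparison across times that was not tested.

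ERBB2 was higher with each inhibitor at 24 h. Its arrays read 9.61, 9.81 and 9.59 with LGX818, 9.70, 9.59 and 9.60 with trametinib, 9.64, 9.65 and 9.75 with MEK162 and 9.82, 9.89 and 9.72 with the ERK inhibitor, against 8.98, 8.71 and 9.0 with DMSO, with no overlap. The rises were 0.78, 0.73, 0.78 and 0.91 (SE 0.094; 1.71, 1.66, 1.72 and 1.88-fold; adjusted p = 5.04e-08, 1.53e-07, 4.78e-08 and 3.12e-09). ERBB3 differed by 0.12, 0.11, 0.19 and 0.12 (SE 0.051) and passed the test with 3 of the inhibitors, LGX818, MEK162 and the inhibitor of ERK (adjusted p = 0.0336, 0.00175 and 0.0486) but not with trametinib (0.0596). Of the tested genes, 41%, 39.1%, 33.2% and 40.7% rose further than ERBB3 with LGX818, trametinib, MEK162 and the ERK inhibitor. ERBB3 in DMSO cells was itself higher at 24 h, at 11.85 ± 0.04, than at 3 h, at 11.26 ± 0.067 (SD, n = 3 each; difference 0.59, adjusted p = 1.8e-09), larger than the ERBB3 difference with any inhibitor at either time. The ERBB3 calls with LGX818 and the ERK inhibitor at 24 h were lost with array medians subtracted (0.11, adjusted p = 0.0934, and 0.075, adjusted p = 0.272). Without LGX818 array c the ERBB3 value with LGX818 was 0.075 (adjusted p = 0.224).

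At 24 h, 5, 4, 5 and 5 of the 5 tested members were called with LGX818, trametinib, MEK162 and the ERK inhibitor. Because 69.2%, 64.5%, 67.2% and 65.2% of all tested genes were called in the same comparisons, these counts lie near the background. The median absolute difference of all tested genes with LGX818 was 0.34. In DMSO cells, 24 h against 3 h, 4 of 5 members were called where 31.4% of all tested genes were. TGFA was higher by 0.34 (adjusted p = 0.0125; 0.29 with adjusted p = 0.0599 without DMSO 3 h array c), and ERRFI1 was lower by 0.46, at 11.43 ± 0.063 against 11.89 ± 0.046 (SD, n = 3 each; adjusted p = 3.63e-05). ERBB2 differed by -0.05 and was not called (adjusted p = 0.732).

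The change of each inhibitor effect between 3 h and 24 h was tested as a difference of differences. It was -1.74, -1.47, -1.66 and -1.37 for TGFA (SE 0.14; adjusted p = 7.56e-11, 2.47e-09, 2.05e-10 and 9.83e-09), 1.46, 1.27, 1.34 and 1.19 for HBEGF (SE 0.17; adjusted p = 4.43e-08, 5.27e-07, 2.23e-07 and 1.64e-06) and 0.55, 0.43, 0.48 and 0.68 for ERBB2 (SE 0.13; adjusted p = 0.0012, 0.00887, 0.00386 and 0.000119). TGFA effects grew with time, HBEGF effects changed sign, and ERBB2 effects grew. ERBB3 was not called with any inhibitor (-0.11, -0.14, 0.0042 and -0.049, SE 0.072; adjusted p = 0.223, 0.11, 0.966 and 0.599). Called members numbered 3, 3, 3 and 4 of 5, with 52%, 49.7%, 50.9% and 48.7% of all tested genes called.

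**Figure D2:**
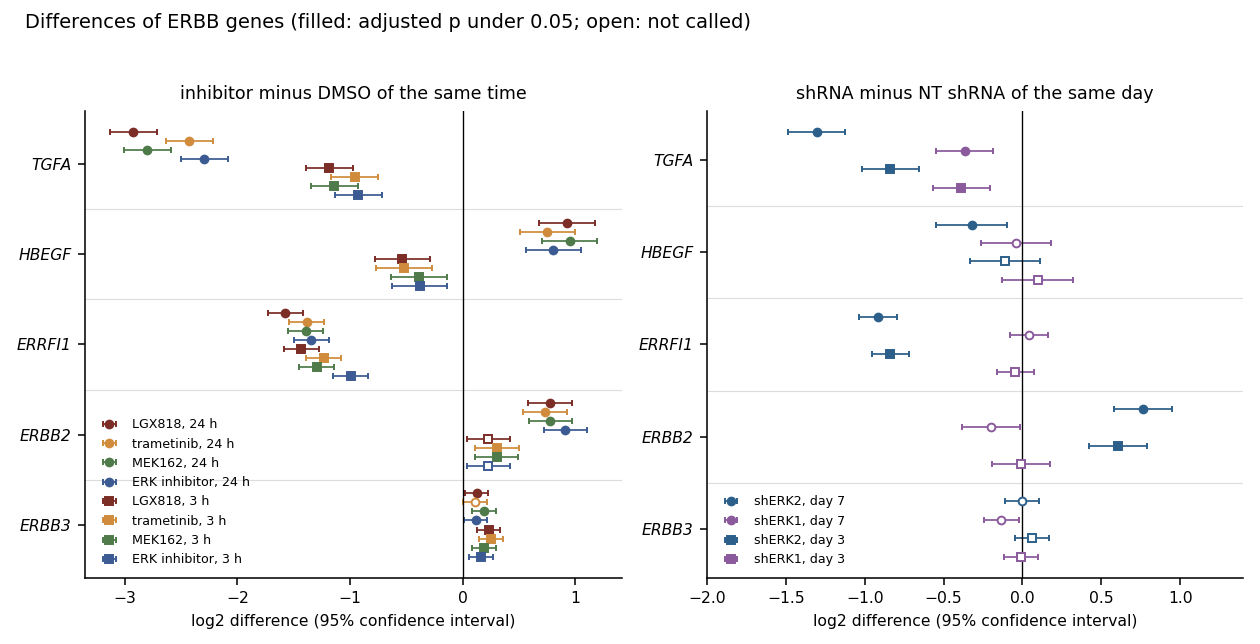
Log2 differences with 95% confidence intervals for 5 ERBB genes, inhibitor minus DMSO of the same time (left) and shRNA minus NT shRNA of the same day (right), circles for 24 h or day 7 and squares for 3 h or day 3, filled where the adjusted p is under 0.05. TGFA and ERRFI1 lie left of 0 for every inhibitor and for shERK2, and HBEGF at the later time lies right of 0 for the inhibitors (0.75 to 0.95) and left of 0 for shERK2 (-0.32).

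In the shRNA arm, MAPK3, which encodes ERK1, was read first as a check of the shERK1 label. It stood at 7.99, 8.49 and 7.98 in shERK1 cells, against 9.48, 9.55 and 9.63 in NT cells on day 7, and at 8.02, 8.28 and 8.19 in shERK1 cells, against 9.66, 9.67 and 9.78 in NT cells on day 3. The differences were -1.40 on day 7 and -1.54 on day 3 (SE 0.12; adjusted p = 7.45e-08 and 3.24e-08). In shERK2 cells MAPK3 differed from NT cells by 0.05 and -0.015 (adjusted p = 0.728 and 0.939). The gene targeted in shERK2 cells is not analysed here.

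In shERK2 cells TGFA and ERRFI1 were lower and ERBB2 was higher than in NT cells, the directions seen with the inhibitors at 24 h. TGFA read 7.20, 7.50 and 7.44 in shERK2 cells, against 8.66, 8.77 and 8.63 in NT cells on day 7, and 8.08, 8.14 and 8.13 in shERK2 cells, against 8.98, 8.92 and 8.97 in NT cells on day 3. Neither day showed overlap. The differences were -1.30 (SE 0.087, 2.47-fold lower, adjusted p = 3.28e-11) and -0.84 (1.79-fold lower, adjusted p = 1.29e-07). On day 7 every shERK2 array was below 7.86, where a low TGFA value can be background. The day 7 fold, and other differences drawn from these arrays, may be underestimates. The effect on day 7 minus that on day 3 was -0.47 (SE 0.12; adjusted p = 0.00812), the only one of 5 tested members called in that test, where 23.9% of all tested genes were.

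ERRFI1 stood at 10.60, 10.77 and 10.83 in shERK2 cells, against 11.68, 11.58 and 11.69 in NT cells on day 7. On day 3 it stood at 10.67, 10.68 and 10.72 in shERK2 cells, against 11.51, 11.52 and 11.55 in NT cells. The groups did not overlap on either day, with differences of -0.92 and -0.84 (SE 0.057; adjusted p = 1.02e-11 and 1.66e-10). Both falls, of 1.89-fold and 1.79-fold, stand beside 2.54- to 2.98-fold with the inhibitors at 24 h.

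ERBB2 stood at 9.85, 9.51 and 9.77 in shERK2 cells, against 8.98, 8.81 and 9.06 in NT cells on day 7, a difference of 0.76 (SE 0.088; adjusted p = 1.79e-07). On day 3 it stood at 9.50, 9.30 and 9.34 in shERK2 cells, against 8.76, 8.85 and 8.71 in NT cells, a difference of 0.61 (adjusted p = 1.45e-05). Every shERK2 array was above every NT array of its day. ERBB3 was not called on either day. It averaged 11.61 ± 0.087 in shERK2 cells and 11.62 ± 0.034 in NT cells on day 7 (SD, n = 3 each; difference -0.0027, 95% confidence interval -0.11 to 0.11), and the difference was -0.11 (adjusted p = 0.112) with array medians subtracted. On day 3 it averaged 11.83 ± 0.036 in shERK2 cells and 11.77 ± 0.042 in NT cells, a difference of 0.06 that exceeded the SD of both groups but did not pass the test (adjusted p = 0.412).

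HBEGF fell in shERK2 cells on day 7, the opposite direction to the inhibitors at 24 h, whose difference from the shRNA effect was not tested. It read 8.51, 8.22 and 8.48 in shERK2 cells, against 8.77, 8.54 and 8.87 in NT cells, without overlap. The difference was -0.32 (SE 0.11; adjusted p = 0.0128), and it was not called without shERK2 array b (-0.23, adjusted p = 0.0735) or without NT array c (-0.25, adjusted p = 0.0726). On day 3 the HBEGF difference was -0.11 (adjusted p = 0.47).

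Of 5 tested members, 4 were called for shERK2 on day 7 and 3 on day 3, where 64.2% and 33% of all tested genes were called, so the day 7 count is near the background. The shERK2 day 7 array with the highest GAPDH 3′ minus 5′ signal (1.53) also had the lowest TGFA and ERRFI1 and the highest ERBB2 of its group. Without that array the day 7 differences from NT cells were -1.22 for TGFA, -0.85 for ERRFI1, 0.69 for ERBB2 and -0.38 for HBEGF, and all 4 kept their calls (adjusted p = 3.63e-11, 3.80e-12, 7.04e-07 and 0.00689).

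In shERK1 cells TGFA alone was called among the 5 tested members. TGFA read 8.39, 8.27 and 8.30 in shERK1 cells on day 7 and 8.62, 8.36 and 8.73 on day 3, below all NT arrays of the same days. The differences were -0.36 and -0.39 (SE 0.087; adjusted p = 0.00537 and 0.0105), and the day 3 call was lost without shERK1 array b (-0.28, adjusted p = 0.0781). With 17.9% of all tested genes called on day 7 and 4.66% on day 3, 1 of 5 is close to the background on day 7. ERRFI1 in shERK1 cells differed from NT cells by 0.043 (95% confidence interval -0.076 to 0.16) and -0.045 (-0.16 to 0.074). ERBB2 differed by -0.20 on day 7, with all 3 shERK1 arrays below NT (adjusted p = 0.129), and by -0.0082 on day 3. The day 7 minus day 3 difference of the shERK1 effect was called for 0 of the 5 (adjusted p = 0.564 to 0.969 in limma, and 0 at an unadjusted p under 0.05), where 0.522% of all tested genes were called.

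Set directly against shERK1 cells, shERK2 cells had more ERBB2 and less TGFA and ERRFI1 on both days. The differences on day 7 and day 3 were 0.96 and 0.61 for ERBB2, -0.94 and -0.45 for TGFA, and -0.96 and -0.79 for ERRFI1 (adjusted p at most 0.000323). On day 7 HBEGF was also lower (-0.28, adjusted p = 0.0254) and ERBB3 higher (0.13, adjusted p = 0.033), although the ERBB3 arrays of the lines overlapped. Both of these calls were lost when shERK2 array b was left out, at -0.19 for HBEGF (adjusted p = 0.134) and 0.082 for ERBB3 (adjusted p = 0.18). With array medians subtracted the ERBB3 value was 0.035 (adjusted p = 0.628). These calls, 5 of 5 members on day 7 and 3 of 5 on day 3, stand beside 68.7% and 35.5% of all tested genes.

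The controls were not alike for all members. NT cells differed from parental cells in ERRFI1 on day 7, at 11.65 ± 0.061 in NT cells and 11.31 ± 0.021 in parental cells (SD, n = 3 each), a difference of 0.34 (adjusted p = 0.000161). On day 3 they differed in TGFA, at 8.96 ± 0.032 in NT cells and 9.36 ± 0.019 in parental cells, a difference of -0.40 (adjusted p = 0.00265). The 1 of 5 members called on each day compares with 16.4% of all tested genes on day 7 and 11.9% on day 3. Against parental cells, the shERK2 differences on day 7 and day 3 were -1.49 and -1.24 for TGFA, -0.58 and -0.71 for ERRFI1, and 0.70 and 0.44 for ERBB2, all called, with HBEGF at -0.42 on day 7 (adjusted p = 0.0022).

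For shERK1, TGFA was lower than in parental cells by 0.55 on day 7 and 0.79 on day 3, with means of 8.32 ± 0.058 in shERK1 cells and 8.87 ± 0.11 in parental cells on day 7, and 8.57 ± 0.19 in shERK1 cells and 9.36 ± 0.019 in parental cells on day 3 (SD, n = 3 each; adjusted p = 2.84e-05 and 4.87e-07). ERRFI1 was higher than in parental cells on day 7 (0.38, adjusted p = 1.49e-05), as it was in NT cells, and ERBB2 was lower (-0.27, adjusted p = 0.0204, and -0.20 with adjusted p = 0.113 without parental array c). Of 5 tested members, 3 were called for shERK1 on day 7 and 1 on day 3, beside 39.6% and 21.2% of all tested genes, and 4 and 3 for shERK2, beside 60% and 27%. The choice of control thus changed the ERRFI1 and ERBB2 calls for shERK1 on day 7 and left the TGFA, ERRFI1 and ERBB2 calls for shERK2 in place.

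**Figure D3:**
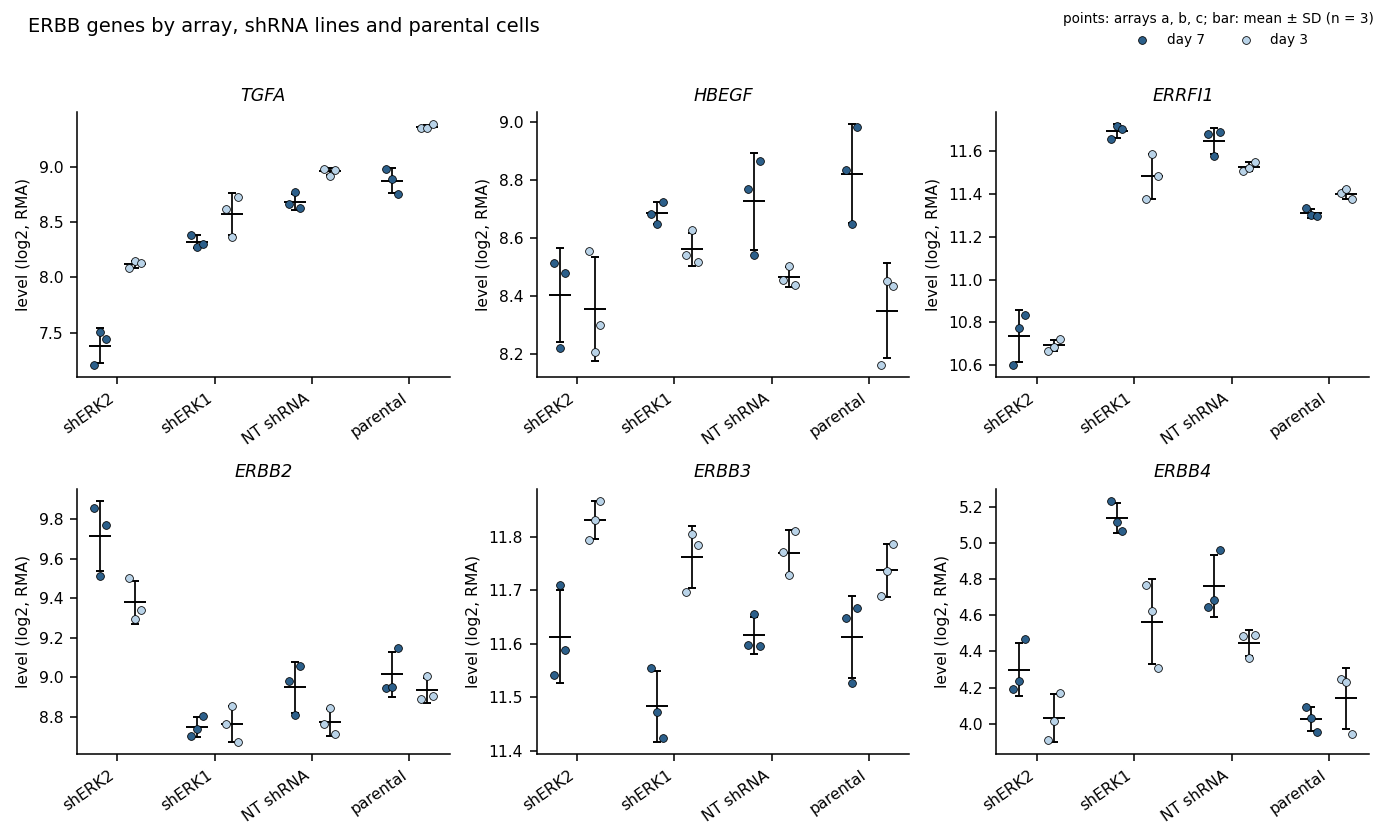
Level (log2, RMA) of 6 ERBB genes on each array of the shRNA arm, day 7 in dark blue and day 3 in light blue; horizontal bars are means with SD of 3 arrays. shERK2 cells stand apart in TGFA, ERRFI1 and ERBB2, and ERBB4 is highest in shERK1 cells on day 7 (5.07 to 5.23).

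The 4 members below the filter were looked at in a fit over all 17875 genes. ERBB4, a neuregulin receptor, was the one whose low level varied among groups. It read 5.23, 5.12 and 5.07 in shERK1 cells and 4.65, 4.69 and 4.96 in NT cells on day 7, against 4.09, 4.03 and 3.95 in parental cells, while shERK2 cells read 4.19, 4.24 and 4.47. The shERK1 and NT arrays all lay above the parental arrays. The differences from parental cells were 1.12 for shERK1 (SE 0.12; adjusted p = 1.18e-07) and 0.74 for NT cells (adjusted p = 9.92e-05), where 32.6% and 13.1% of the 17875 genes were called.

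Against NT cells, ERBB4 in shERK2 cells was lower on both days, with differences of -0.47 on day 7 and -0.41 on day 3 (adjusted p = 0.00244 and 0.0136), and in shERK1 cells it was higher on day 7 by 0.38 (adjusted p = 0.0395), with 45.5%, 20.8% and 12.4% of genes called. Against shERK1 cells, shERK2 cells were lower, with differences of -0.84 on day 7 and -0.54 on day 3 (adjusted p = 2.82e-06 and 0.00162), with 51.8% and 23.1% of genes called. shERK1 cells on day 3 exceeded parental cells by 0.43 (adjusted p = 0.0154), with 15% called. ERBB4 in shERK2 cells was not called against parental cells on either day. These differences were 0.27 on day 7 (adjusted p = 0.0727) and -0.11 on day 3 (adjusted p = 0.665), with 39% and 16.1% of genes called. The lower ERBB4 of shERK2 cells thus held against NT and shERK1 cells only. Every ERBB4 value lay under 5.24, where background sets part of the signal, so these values describe a probe set near the bottom of the scale.

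EGFR, the receptor of TGFA and HBEGF, spanned 0.28 over all 54 arrays. Its 1 call without the filter was shERK2 against NT cells on day 7 (-0.19, SE 0.072; adjusted p = 0.0305), at 3.75, 3.70 and 3.74 in shERK2 cells, against 3.97, 3.91 and 3.89 in NT cells. In that comparison 45.5% of the 17875 genes were called. Against parental cells, EGFR in the same shERK2 arrays differed by -0.029 (adjusted p = 0.804). EGFR in NT cells differed from parental cells on day 7 by 0.16 (adjusted p = 0.145). NRG1 and EREG had 0 calls in 27 comparisons, and also 0 at an unadjusted p under 0.05. By comparison, 0.61% to 51.8% of the 17875 genes were called. In the 8 comparisons of an inhibitor with DMSO, 0 of the 4 low members were called by limma, and again 0 at an unadjusted p under 0.05. In these comparisons 5.4% to 7.21% of the 17875 genes were called at 3 h and 42.3% to 46.3% at 24 h. Group means of NRG1 spanned 0.16 among inhibitor and DMSO groups and 0.14 in the other arm, and those of EREG spanned 0.34 and 0.16.

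Within each arm the order of the groups differed between members. For ERRFI1 the inhibitor arm ran, from high to low, DMSO at 3 h, DMSO at 24 h, the inhibitors at 3 h and the inhibitors at 24 h, and each of the 3 steps between these blocks exceeded the larger SD of the neighbouring groups. For TGFA the order was DMSO at 24 h (9.56), DMSO at 3 h (9.22), the 4 inhibitors at 3 h (8.29 to 8.03) and the 4 inhibitors at 24 h (7.26 to 6.63). Among the 4 inhibitor groups at 3 h, neighbours in this order did not differ beyond the larger SD, while DMSO at 3 h stood above them by more than that. For HBEGF, DMSO at 24 h was the lowest group of the arm (8.40 ± 0.10) and LGX818 at 3 h, its neighbour, overlapped it (8.55 ± 0.25; SD, n = 3 each).

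**Figure D4:**
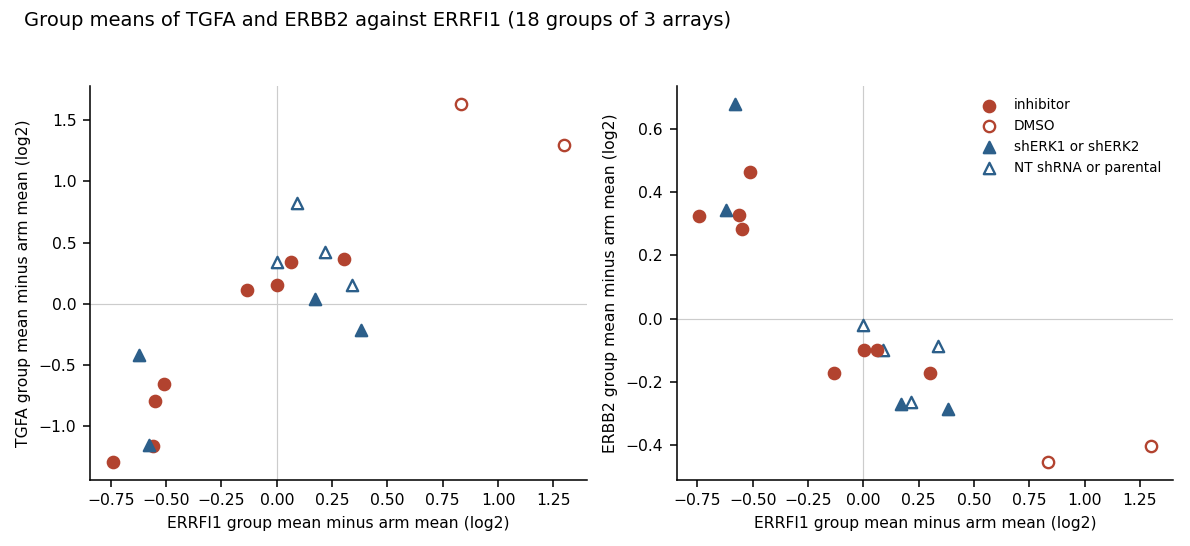
Group means (log2) of TGFA (left) and ERBB2 (right) against ERRFI1, each minus the mean of its arm, for 18 groups of 3 arrays; circles are the inhibitor arm, triangles the shRNA arm, and open symbols controls. Groups with lower ERRFI1 tend to have lower TGFA and higher ERBB2, with exceptions. LGX818 at 3 h lies below its arm mean in ERRFI1 and ERBB2 and above it in TGFA. The 2 shERK1 groups have TGFA below the NT and parental groups of their day at ERRFI1 means of 11.69 and 11.48.

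Of all 9455 genes tested in both arms, those with group means most like TGFA over the 18 groups, centred within each arm, were IFNGR2 (Pearson r 0.97), a subunit of the interferon gamma receptor, ANKS1A (0.97) and NUDT6 (0.97). Those most like ERRFI1 were RABGGTB (0.95), a subunit of the transferase that prenylates Rab proteins, POLR1B (0.95), a subunit of RNA polymerase I, and NOCT (0.94). These r values describe 18 means that share arrays, treatments and normalization with the gene they were matched to.

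Other genes of the pathway changed in both directions. Of 11 tested receptor-proximal adaptors and signalling proteins, 6 rose and 2 fell with each inhibitor at 24 h. In the same comparisons 35.4%, 31.6%, 33.4% and 33.6% of all tested genes rose and 33.8%, 33%, 33.8% and 31.5% fell. The list medians were 0.58, 0.54, 0.54 and 0.50, beside medians between -0.0033 and 0.016 over all tested genes. GAB1, a docking protein of receptor tyrosine kinases, averaged a log2 difference of 1.78 over the 4 inhibitors, and PIK3R3, a regulatory subunit of phosphatidylinositol 3-kinase, 1.67. The docking protein GAB2 averaged -0.65 and the phospholipase PLCG1 -0.48. At 3 h, 3 of 11 rose with each inhibitor, where 5.27%, 5.09%, 6.38% and 5.51% of all tested genes did. These 3 were GAB1, PIK3R3 and the adaptor SHC4, the last named after its values were seen. In shERK2 cells on day 7, 6 rose and 2 fell against NT cells (list median 0.27), where 32.8% of all tested genes rose and 31.5% fell (3204 and 3078 genes, or 2403 and 3949 with array medians subtracted), with GAB1 at 0.76, PIK3R3 at 0.67, GAB2 at -0.41 and PLCG1 at -0.40. In shERK1 cells 1 rose, PIK3R3 (0.52), and 2 fell (list median 0.016), where 8.74% of all tested genes rose and 9.16% fell.

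Of 7 tested genes of ligand shedding, by which membrane-bound TGFA and HBEGF are released, 3, 3, 3 and 2 rose with LGX818, trametinib, MEK162 and the ERK inhibitor at 24 h and 1 fell each time. Of all tested genes 31.6% to 35.4% rose and 31.5% to 33.8% fell in these comparisons, so the counts that rose are near the background. The protease ADAM9 averaged 0.58, RHBDF1, an inactive rhomboid, 0.43 (called with LGX818, trametinib and MEK162), and the protease ADAM12 -0.35. The list medians were 0.089, 0.21, 0.12 and 0.17. ADAM12 went the other way in shERK2 cells, at 1.38 on day 7 and 0.67 on day 3, both called against NT cells. ADAM17, the main sheddase of TGFA, differed from DMSO by 0.01, 0.21, 0.12 and 0.17 in the 4 inhibitors at 24 h, none of which passed the test, and rose by 0.35 in shERK2 cells on day 7. On that day 4 of the 7 rose in shERK2 cells against NT cells (list median 0.23), and 2 fell in shERK1 cells (list median -0.10), where 32.8% of all tested genes rose with shERK2 and 9.16% fell with shERK1. TIMP3, an inhibitor of ADAM17, was among both, at 0.44 in shERK2 cells and -0.46 in shERK1 cells, and so was RHBDF1, at 0.23 and -0.41. Their differences between shERK2 and shERK1 cells were 0.90 (SE 0.045; adjusted p = 1.79e-13) and 0.64 (SE 0.097; adjusted p = 5.47e-06).

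Of 14 tested genes of receptor down-regulation and trafficking, 6, 4, 5 and 6 rose and 3, 1, 2 and 2 fell at 24 h, in the same order of inhibitors. Beside 31.6% to 35.4% of all tested genes that rose and 31.5% to 33.8% that fell, the counts that rose are near the background and those that fell are below it. EPS15, an endocytic adaptor, averaged 0.83, and the ubiquitin ligase CBLB 0.61. The adaptor SH3KBP1 averaged -0.64, and CBL, the ubiquitin ligase of EGFR, -0.43 (called with LGX818 and the ERK inhibitor). The list medians were 0.24, 0.094, 0.12 and 0.17. In shERK2 cells on day 7, 4 rose, with HGS, a sorting protein of endosomes, at 0.70 and CBLB at 0.64, and 2 fell, CBL at -0.70 and the phosphatase PTPN1 at -0.23, while in shERK1 cells 1 fell (list medians 0.10 and -0.078). Of all tested genes 32.8% rose and 31.5% fell with shERK2, and 9.16% fell with shERK1. The medians over all tested genes were 0.013 and -0.0086. Subtracting array medians shifted the median of all genes by -0.11 in shERK2 against NT cells on day 7. This shift bears on every list median of that comparison. EGF was the 1 of 5 other measured EGF-type ligands above the filter and was lower with each inhibitor at 24 h, with a mean difference of -0.24. On day 7 it differed from NT cells by -0.21 in shERK2 cells (adjusted p = 0.0565) and -0.28 in shERK1 cells (adjusted p = 0.049), and on day 3 by -0.77 in shERK2 cells (adjusted p = 1.72e-06). Against parental cells on day 7, EGF differed by 0.068 in shERK2 and 0.005 in shERK1 cells, neither called. NT cells exceeded parental cells by 0.28 on that day, which was called. On day 3 EGF in shERK2 cells was lower than in parental cells (-0.69, called).

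Of 8 factors reported to act on ERBB3 transcription, 5, 5, 5 and 6 rose and 2, 1, 2 and 0 fell at 24 h, where 35.4%, 31.6%, 33.4% and 33.6% of all tested genes rose and 33.8%, 33%, 33.8% and 31.5% fell. TFAP2A, an AP-2 factor, averaged 1.74 and FOXD3, a forkhead factor of the neural crest, 1.51, beside ERBB3 differences of 0.11 to 0.19. The corepressors CTBP2 and CTBP1 averaged -0.12 (called with 2 of the 4 inhibitors) and -0.094 (called with 3). The list medians were 0.42, 0.31, 0.45 and 0.38. At 3 h, 4, 6, 4 and 4 of them rose, where 5.27%, 5.09%, 6.38% and 5.51% of all tested genes did, with FOXD3 at 1.25, 1.03, 1.03 and 0.82. In shERK2 cells on day 7, 3 rose and 3 fell against NT cells (list median 0.036), with TFAP2A at 0.86 and FOXO1 at -0.95, and with FOXD3, named here after its values were seen, at 1.22. These counts stand beside 32.8% of all tested genes that rose and 31.5% that fell. ERBB3 in the same cells differed from NT cells by -0.0027, and by -0.11 with array medians subtracted, neither of which was called. In shERK1 cells on day 7, 3 of the 8 rose and 2 fell (list median -0.013), with FOXO4 at 0.53, TFAP2A at 0.19 and FOXD3 at -0.54, where 8.74% of all tested genes rose and 9.16% fell.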

How the data were processed

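Each deposited value is the log2 level of a probe set. Per the submitters' processing notes the authors used RMA and affy, with versions not given. The genome build and the chip definition are not given in the sources used here. RMA quantile normalises the arrays, which assumes that most genes do not shift together. Of 18989 probe sets, 17875 carry 1 gene symbol each, 62 are controls, and 1052 without an entry in the table of probe names were left out. Arrays have no read depth, and their number limits the precision.

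In R 4.3.3, each arm was fitted in limma 3.58.1 with a mean for every group (lmFit, and eBayes with its trend option), on 30 inhibitor arrays (20 residual degrees of freedom) and 24 shRNA arrays (16). Genes were tested where at least 1 group mean of the arm exceeded 7.86 log2, and p values were adjusted by the Benjamini-Hochberg method over all tested genes of a comparison. Alternatives were no filter, a filter at the 75th percentile (10.13), only the arrays of the comparison, all 54 arrays, no intensity trend, array medians subtracted, the replicate letter as a block and each array left out. The test was checked on simulated data. Figures were drawn in Python 3.11.15 with matplotlib 3.10.9.

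The members, the gene lists and the tests were chosen with earlier results of these data known. Named were all 9 measured members, MAPK3, the 2 largest mean rises and 2 largest mean falls among called genes of each list (other EGF-type ligands, ligand shedding, adaptors, receptor down-regulation and trafficking, factors reported to act on ERBB3), and the 3 genes most like each member tested in both arms whose group means span at least 1 log2 within an arm. Promoter windows are from RefSeq (GRCh38.p14), and those of 7 members were searched. NRG1, on chromosome 8, was left out, and ERBB3 had no window in the set used.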

Additional observations from a re-analysis of the deposited data

Results flagged for a closer look

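In 14 results the effect of a treatment differed between its times, by limma's test of the difference itself. Of all tested genes, 52%, 49.7%, 50.9% and 48.7% were called in these tests with LGX818, trametinib, MEK162 and the ERK inhibitor. The shares were 23.9% for shERK2 and 0.522% for shERK1, so such a difference was common except for shERK1. The TGFA effect at 24 h minus that at 3 h was -1.74 with LGX818, -1.47 with trametinib, -1.66 with MEK162 and -1.37 with the ERK inhibitor (SE 0.14; adjusted p = 7.56e-11, 2.47e-09, 2.05e-10 and 9.83e-09). The HBEGF effect, negative at 3 h and positive at 24 h, differed by 1.46, 1.27, 1.34 and 1.19 in the same order (SE 0.17; adjusted p = 4.43e-08, 5.27e-07, 2.23e-07 and 1.64e-06). The ERBB2 effect was larger at 24 h by 0.55, 0.43, 0.48 and 0.68 (SE 0.13; adjusted p = 0.0012, 0.00887, 0.00386 and 0.000119).

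For ERRFI1 the difference passed the test with the ERK inhibitor alone, at -0.35 (SE 0.11; adjusted p = 0.00876). In the shRNA arm it did so for TGFA in shERK2 cells, whose effect on day 7 minus that on day 3 was -0.47 (SE 0.12; adjusted p = 0.00812).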

How the results depend on the processing

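Of 135 results for the 5 tested members, 85 were called, and 0 of these changed direction under any alternative run. The 135 come from 27 comparisons that share arrays and are not separate results. By comparison, 0.522% to 69.2% of all tested genes were called. All 85 calls held with all 54 arrays in 1 fit, 84 without the intensity trend, 80 without the filter, 80 with array medians subtracted and 75 when only the arrays of a comparison were fitted. With 1 array left out, 548 of 594 values kept their call and 14 results lost it at least once. These were ERBB2 with trametinib and MEK162, and ERBB3 and HBEGF with MEK162 and the ERK inhibitor, all at 3 h; ERBB3 with LGX818 and the ERK inhibitor at 24 h; TGFA in DMSO cells at 24 h against 3 h; TGFA in shERK1 against NT cells on day 3; and on day 7 ERBB2 in shERK1 against parental cells, HBEGF in shERK2 against NT cells, and HBEGF and ERBB3 in shERK2 against shERK1 cells. TGFA and ERRFI1 kept every call of an inhibitor against DMSO wherever they were tested.

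Called member values ranged over the arrays left out from 12 to 18 for the inhibitors at 3 h, 17 to 19 at 24 h, 13 to 13 for the difference between the times, 3 to 4 for DMSO at 24 h against 3 h, 8 to 10 for shRNA against NT cells, 10 to 12 against parental cells, 2 to 2 for NT against parental cells, 6 to 9 for shERK2 against shERK1 and 1 to 1 for day 7 against day 3. In that order the counts in the report are 18, 19, 13, 4, 9, 11, 2, 8 and 1. The stricter filter, under which of the 5 only ERBB3 and ERRFI1 could be tested, left 8, 7, 1, 2, 2, 3, 1, 3 and 0.

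The letters a, b and c do not pair the arrays by any label. Same-letter arrays of compared groups deviated together with correlations from -0.57 to 0.70, over 0.1 in 29 of 63 pairs and in every pair of 4 of 21 comparisons. With the letter as a replicate block the counts were 18, 18, 13, 4, 9, 11, 2, 8 and 1, and 1 call was lost, ERBB3 with the ERK inhibitor at 24 h (0.12, adjusted p = 0.0509).

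Subtracting array medians shifted the median of all genes by at most 0.12 in size, in shERK2 against parental cells on day 7. Relative to it, shERK2 against NT cells on day 7 gave -1.41 for TGFA, -1.03 for ERRFI1, 0.65 for ERBB2 and -0.43 for HBEGF, all called, and -0.11 for ERBB3, not called (adjusted p = 0.112). It also changed the numbers of genes that rose and fell with the ERK inhibitor at 3 h (386 and 575, beside 535 and 473 in the report's setting), in shERK2 against NT cells on day 3 (1341 and 1925, beside 1714 and 1511), against parental cells on day 7 (2212 and 3697, beside 3163 and 2704), against shERK1 cells on day 7 (2822 and 3947, beside 3480 and 3234) and day 3 (1406 and 2175, beside 1850 and 1621), and in the shERK1 difference between days (27 and 55, beside 29 and 22).

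Counts over all genes moved more. The ERK inhibitor at 3 h called 1008 genes, and 295 when only its arrays and DMSO were fitted, 631 without its array c, and 633 and 648 without DMSO arrays a and b. Trametinib at 3 h called 1094, and 721 without its array c. With only the arrays of the comparison fitted, shERK1 against NT called 3218 (1751 in the report) on day 7 and 695 (456) on day 3, shERK2 against NT 4147 (6282) and 5127 (3225), shERK2 against parental cells 3262 (5867) on day 7 and NT against parental cells 2623 (1168) on day 3. Without single arrays, shERK1 against NT fell to 1057 on day 7 (without shERK1 array b) and 240 on day 3 (without NT array c). Without the filter, shERK1 against parental cells on day 7 called 5819 (3868). The difference of shERK1 effects between days, 51 in the report, ranged from 6 to 303. The cause of these shifts was not tested.

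What limits the values is 3 arrays a group. The signal of EGFR, ERBB4, NRG1 and EREG also lay in the lower range of the table. So did that of TGFA after 24 h of inhibitor and in shERK2 cells on day 7. No detection calls were used there.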
